A study of Mus musculus with 4 samples.

Results

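The data describe bidirectional protein-coding promoters, stretches of DNA from which a pair of genes is transcribed in opposite directions. A pair was taken where the 5′ ends (TSSs) of 2 protein-coding genes on opposite strands lay head to head and at most 1000 bp apart in the GENCODE M21 annotation of mm10. By this rule 755 pairs were found, which hold 1489 of the 21938 protein-coding genes (6.79%). Each region ran from 1500 bp outside one TSS to 1500 bp outside the other. RNA polymerase II (Pol II) was measured by chromatin immunoprecipitation sequencing in brain endothelial cells (ECs), with 2 libraries from old WT Cre mice and 2 from young EC-K4KO mice. The old WT Cre mice (20 to 23 mo) carried the tamoxifen-inducible VE-cadherin Cre (Cdh5-CreERT2), active in endothelium, without floxed Klf4 (labelled CdH5CRE, old). The young EC-K4KO mice (4 to 6 mo) carried the same Cre with floxed Klf4, which encodes a Krüppel-like transcription factor of endothelium (labelled ECK4KO, young). Both groups were on the C57BL/6J background and received tamoxifen at 8 wk of age, and the sex of the mice behind these libraries is not given in the sources used here. Genotype and age therefore differed together and cannot be told apart, and libraries of the other combinations were not analysed here. Each library came from 200000 sorted cells whose chromatin was cut with micrococcal nuclease. The study's methods call the replicates of this assay biological, while the labels do not say whether the 2 libraries of a group came from separate animals, so p-values measure the spread between these libraries.

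Bidirectional promoters are common in compact parts of mammalian genomes and often serve housekeeping genes, among them genes of DNA repair, the core histones and mitochondrial proteins. They usually lie in CpG islands and mostly lack a TATA box. One nucleosome-depleted stretch between the TSSs can take up 2 separate initiation complexes, from which Pol II moves outward into both genes and often pauses shortly after it starts. A Pol II peak marks DNA where the polymerase was bound and does not by itself measure a transcript.

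The distance between the TSSs of a pair was 129 bp at the median, with quartiles at 66.5 and 240 bp and a range of 0 to 987 bp, and 619 pairs (82.0%) were at most 300 bp apart. The pair just inside the limit, Btf3l4/Txndc12 at 987 bp, had a peak in old WT Cre replicate 1 and young EC-K4KO replicate 2, and the pair just outside, Serpina7/4930513O06Rik at 1007 bp, had none in any library. Some genes (21) belonged to more than 1 pair, the pairs covered 753 distinct regions, and 46 regions overlapped another pair region and could share its peaks. A further 456 head-to-head pairs had 5′ ends that overlapped and were not members. The comparison class was 17682 single-gene promoters, from 1500 bp upstream to 1500 bp downstream of the TSS of a gene in no pair with no other protein-coding TSS within 5000 bp. Of these, 713 faced the 5′ end of a noncoding gene head to head. Pairs were richer in CpG than single-gene promoters. In the 1000 bp around the middle, 629 pairs (83.3%) had at least 50% GC and a CpG count of at least 0.6 of that expected from base composition, called CpG-rich below, against 7115 single-gene promoters (40.2%) and 76.0% of those with a noncoding partner. Median GC content was 60.1% in pairs and 53.9% in single-gene promoters, and the median observed over expected CpG was 0.774 and 0.487.

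In 8 pairs named below, the strongest peak of each library that had one had its summit downstream of a TSS and not between the TSSs. The sequences between the TSSs of these 8 pairs are shown here. Each is the plus strand of GRCm38 (RefSeq FASTA) from the base after the TSS of the minus-strand gene to the base before the TSS of the plus-strand gene, so it lies 5′ of both annotated genes. Capitals mark matches, on either strand, to an ETS motif (CCGGAAGT), a CCAAT box (CCAAT), a GC box (GGGCGG) or a ZNF143 motif (ACTACAA). The first 5 pairs had a peak in all 4 libraries, Ccdc146/Fam185a in the old WT Cre libraries alone and Npc2/Isca2 in the young EC-K4KO libraries alone, and Col4a4/Col4a3 is a pair of basement membrane collagen genes.
Hist1h2bf/Hist1h2ad (chr13:23574197-23574380): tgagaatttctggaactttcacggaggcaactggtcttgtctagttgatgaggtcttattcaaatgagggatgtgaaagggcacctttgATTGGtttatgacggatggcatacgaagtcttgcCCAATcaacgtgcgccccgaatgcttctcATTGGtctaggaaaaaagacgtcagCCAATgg
Rpa1/Smyd4 (chr11:75348325-75348432): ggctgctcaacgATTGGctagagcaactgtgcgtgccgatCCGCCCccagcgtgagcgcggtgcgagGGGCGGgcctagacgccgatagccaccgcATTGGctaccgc
Ptcd2/Mrps27 (chr13:99344706-99344785): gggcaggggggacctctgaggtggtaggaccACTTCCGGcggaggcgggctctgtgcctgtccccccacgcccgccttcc
Mfsd8/Abhd18 (chr3:40846887-40846969): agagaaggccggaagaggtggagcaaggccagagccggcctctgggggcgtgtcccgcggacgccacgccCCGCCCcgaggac
1700029J07Rik/Ufsp2 (chr8:45975253-45975527): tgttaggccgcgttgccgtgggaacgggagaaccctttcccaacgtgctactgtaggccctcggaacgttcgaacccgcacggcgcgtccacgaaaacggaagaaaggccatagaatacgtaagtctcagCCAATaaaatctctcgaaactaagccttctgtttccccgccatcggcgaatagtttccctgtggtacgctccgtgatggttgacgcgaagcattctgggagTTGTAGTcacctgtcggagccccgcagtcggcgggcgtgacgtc
Ccdc146/Fam185a (chr5:21424678-21424957): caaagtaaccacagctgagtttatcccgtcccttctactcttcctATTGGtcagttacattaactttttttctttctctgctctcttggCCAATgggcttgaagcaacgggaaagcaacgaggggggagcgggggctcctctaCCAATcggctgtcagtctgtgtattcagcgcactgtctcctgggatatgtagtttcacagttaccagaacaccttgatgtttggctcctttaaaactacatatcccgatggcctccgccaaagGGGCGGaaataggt
Npc2/Isca2 (chr12:84773153-84773250): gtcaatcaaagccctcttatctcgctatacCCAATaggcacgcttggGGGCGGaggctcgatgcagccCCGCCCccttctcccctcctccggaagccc
Col4a4/Col4a3 (chr1:82586850-82586920): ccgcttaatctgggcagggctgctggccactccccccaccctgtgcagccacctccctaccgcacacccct
The histone pair held 4 CCAAT boxes and no GC box, Rpa1/Smyd4 held 2 of each, and Ptcd2/Mrps27 held 1 ETS match. Col4a4/Col4a3 held none of the 10 motifs searched.

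A peak at a pair was far more a property of the library than of the group. In the order old WT Cre replicate 1, old WT Cre replicate 2, young EC-K4KO replicate 1 and young EC-K4KO replicate 2, which is kept below, a peak overlapped 241, 287, 121 and 640 of the 755 pair regions. These counts were 31.9% (95% exact Clopper-Pearson interval 28.6 to 35.4), 38.0% (34.5 to 41.6), 16.0% (13.5 to 18.8) and 84.8% (82.0 to 87.3), where the intervals cover counting error only. The lowest and the highest share were thus both in young EC-K4KO, on either side of the old WT Cre libraries. The whole lists held 78851, 39674, 35638 and 235591 peaks, called from 65734178, 27455452, 35227929 and 22705175 fragments, so the library with the fewest fragments had the most peaks and the most pairs with a peak. The fragment totals overstate the depth at pairs, since the tallest peak at a single-gene promoter alone had a pileup of 9580000, 4200000, 1180000 and 393000 fragments. The mean share was 35.0% ± 4.31 (SD, n = 2) in old WT Cre and 50.4% ± 48.6 (SD, n = 2) in young EC-K4KO. The difference of 15.4 percentage points did not exceed the replicate spread (exact permutation of the libraries, two-sided, p = 1.0, where 2 against 2 allow no p below 0.33), and it was -18.9 points without young EC-K4KO replicate 2.

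Within each library, pairs had a peak more often than single-gene promoters. The share of all protein-coding promoters with a peak was 22.9, 22.4, 9.47 and 63.4%, and that of single-gene promoters was 21.8, 20.7, 8.78 and 60.8%. Pairs exceeded single-gene promoters by 10.1, 17.3, 7.25 and 24.0 percentage points, a mean of 14.7 ± 7.54 (SD, n = 4), and were higher in 4 of 4 libraries (two-sided exact sign-flip test, p = 0.13, the smallest that 4 libraries allow). Pair regions are wider by the distance between the TSSs, so summits, the highest position of each peak, were also counted per kb. Pair regions held 0.109, 0.132, 0.0531 and 0.376 summits per kb and single-gene promoters 0.0769, 0.0726, 0.0294 and 0.264. The ratio was 1.41, 1.82, 1.81 and 1.43, a mean of 1.62 ± 0.228 (SD, n = 4; exact sign-flip test of the log2 ratios, p = 0.13).

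The margin was smaller between promoters of like base composition. Among CpG-rich promoters alone, a peak was found at 35.0, 40.5, 17.8 and 88.2% of pairs and at 30.7, 34.5, 12 and 85.4% of single-gene promoters. The difference was 4.32, 6.08, 5.85 and 2.81 points, a mean of 4.76 ± 1.52 (SD, n = 4), still in 1 direction in 4 of 4 libraries (exact sign-flip test, p = 0.13). The ratio of summits per kb fell to a mean of 1.18 ± 0.198, with 1.1, 1.17, 1.46 and 1.0 in the 4 libraries. Among promoters that were not CpG-rich, the difference was 0.749, 14, 0.509 and 23.3 points, so it was large in the second replicate of each group and near 0 in the first, and the ratio of summits per kb was above 1 in only 2 of 4 libraries. These 126 pairs had a peak in 16.7, 25.4, 7.14 and 67.5% of cases. Single-gene promoters that faced a noncoding gene came closer to the pairs than other single-gene promoters, with a peak at 214, 233, 92 and 558 of the 713 in the 4 libraries. Pairs exceeded them by 1.91, 5.33, 3.12 and 6.51 points, a mean of 4.22 ± 2.08 (exact sign-flip test, p = 0.13), and when both were CpG-rich by a mean of 2.4 ± 0.934. The ratio of summits per kb then averaged 1.06 and was above 1 in 3 of 4 libraries.

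**Figure D1:**
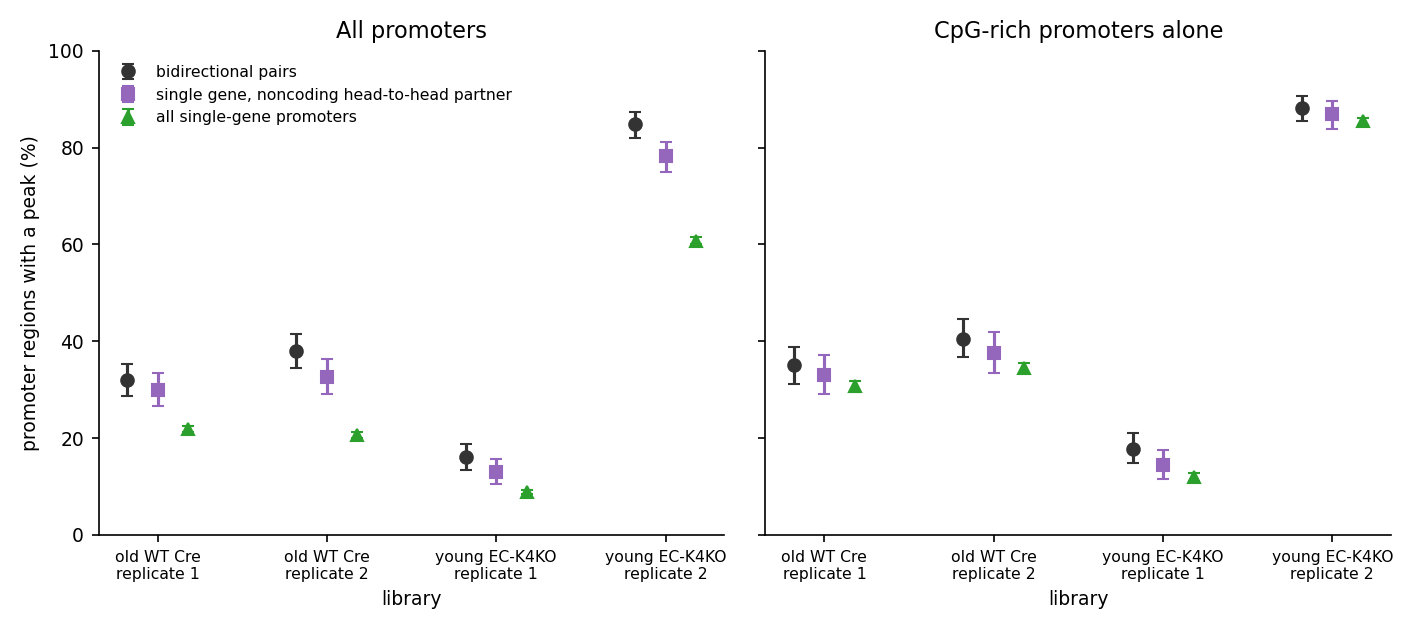
Percent of promoter regions overlapped by at least 1 peak in each of the 4 libraries, for bidirectional pairs, single-gene promoters with a noncoding head-to-head partner and all single-gene promoters, among all promoters (left) and CpG-rich promoters (right); bars are 95% exact binomial intervals for counting error. Pairs lie above all single-gene promoters in every library on the left (for example 38.0 against 20.7% in old WT Cre replicate 2), and the 3 classes draw close together on the right.

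Among the pairs themselves, those richer in CpG had a peak more often. From the lowest to the highest quartile group by observed over expected CpG, the share with a peak was 23.3, 34.4, 31.2 and 38.8% in old WT Cre replicate 1, and 31.2, 37.6, 38.1 and 45.2% in old WT Cre replicate 2. It was 8.99, 14.3, 20.6 and 20.2% in young EC-K4KO replicate 1 and 73.5, 86.2, 87.3 and 92.0% in young EC-K4KO replicate 2. The highest group was above the lowest in 4 of 4 libraries, while neighbouring groups had overlapping 95% intervals, except the lowest and the next in young EC-K4KO replicate 2 (66.7 to 79.7 and 80.5 to 90.8). The distance between the TSSs showed no common order. Pairs 0 to 100 bp apart had a peak in 35.1, 40.6, 13.7 and 81.2% of cases and pairs over 300 bp apart in 30.1, 30.9, 16.9 and 86.8%, higher for close pairs in both old WT Cre libraries and lower in both young EC-K4KO libraries. The intervals of these 2 distance classes overlapped in each library. Where a pair had a peak, the strongest was about as enriched over local background as at a single-gene promoter. The median of the highest fold enrichment per region was 3.94, 5.22, 4.26 and 6.36 in pairs and 3.94, 4.91, 4.15 and 5.72 in single-gene promoters. The highest fold enrichment at a pair was 24.1, at Cdc27/Myl4 in young EC-K4KO replicate 2, between a subunit gene of the anaphase-promoting complex and a myosin light chain gene. Hjurp/Trpm8, where HJURP loads the centromeric histone CENP-A, had the tallest pileup of any pair in the first 3 libraries, at 67, 52 and 56 fragments, with fold enrichments of 3.52, 6.28 and 3.4 there, below the median of pairs in the first and the last of the 3.

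The share of pairs under a peak was highest on either side of the middle, with a dip between the sides that was slight in young EC-K4KO replicate 2. Each pair was laid out with the minus-strand gene to the left and the plus-strand gene to the right of its middle. The share of pairs under a peak reached 7.42, 13.1, 4.9 and 39.3% at 300, 250, 200 and 200 bp to the left, and 9.8, 12.7, 4.37 and 37.4% at 200, 200, 150 and 150 bp to the right. In the middle it was 3.58, 5.3, 4.24 and 36.0%, below both maxima in each library. The lowest point near the middle of young EC-K4KO replicate 1 lay 50 bp to the right, at 3.18%, against 4.9% at the maximum to the left. Single-gene promoters had 1 maximum, of 6.62, 7.44, 2.08 and 24.7%, at 200, 150, 50 and 150 bp downstream of the TSS. The pairs' maximum on either side was thus higher than the single-gene maximum in each library. These maxima were not compared among CpG-rich promoters alone, which made up 83.3% of pairs and 40.2% of single-gene promoters. Between 2500 and 3000 bp away, pairs averaged 0.933, 0.253, 0.313 and 1.69%, near the single-gene values of 0.882, 0.323, 0.274 and 2.03%.

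**Figure D2:**
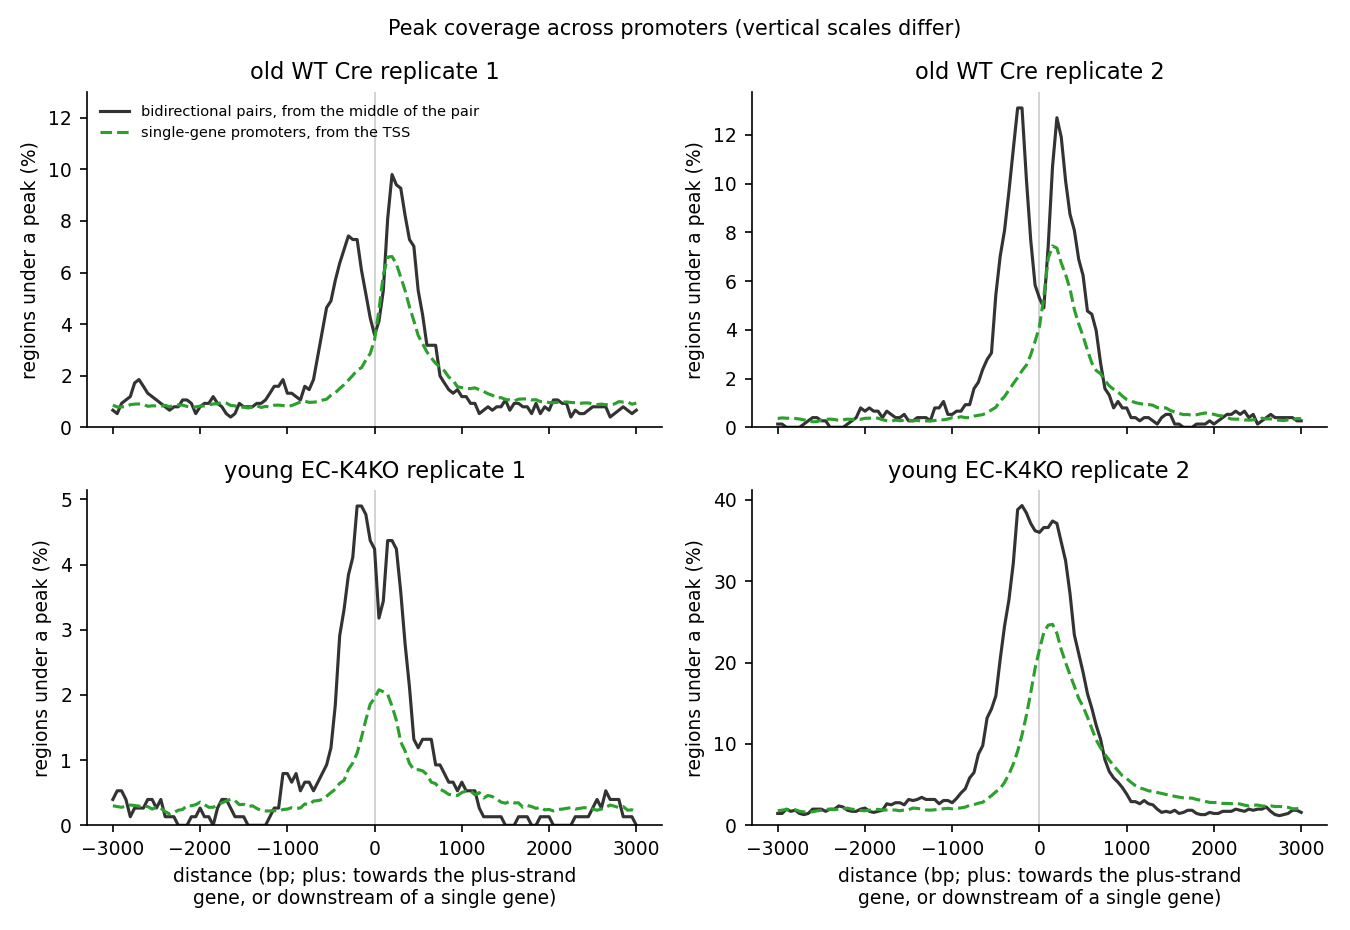
Percent of regions under a peak at each distance, in steps of 50 bp, from the middle of bidirectional pairs (solid line; left is into the minus-strand gene, right into the plus-strand gene) and from the TSS of single-gene promoters (dashed line; right is downstream), 1 panel per library with its own vertical scale. The pairs have a maximum on each side; the middle falls to 3.58 and 5.3% in old WT Cre, against maxima of 7.42 to 13.1%. In young EC-K4KO replicate 1 the lowest point is 3.18%, 50 bp to the right, and in replicate 2 the dip is slight (36.0% against 39.3 and 37.4%).

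Summits were nearly even between the strands when summed over all pairs. The stretch of 1500 bp into the minus-strand gene held 118, 154, 58 and 415 summits and that into the plus-strand gene 137, 152, 57 and 392. Most pairs with a peak had only 1 in a library, which can have its summit on 1 side alone, and 27, 32, 8 and 240 pairs had 2 or more peaks. Summits lay on both sides of 17, 24, 5 and 145 pairs (7.2, 8.42, 4.17 and 22.7% of those with a summit). The side was the minus-strand gene alone in 98, 128, 52 and 221 pairs and the plus-strand gene alone in 117, 121, 51 and 211. Single-gene promoters with a summit had them on both sides of the TSS in 5.37, 3.87, 2.4 and 17.8% of cases, below the pairs in 4 of 4 libraries, though pairs also held more summits per kb, and upstream alone in 27.2, 22.6, 38.0 and 22.6%.

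The stretch between the TSSs was where the groups differed in position. It took up 6.01% of the bases of the pair regions and held 7 of 262 summits (2.67%, 95% exact interval 1.08 to 5.43) and 13 of 319 (4.08%, 2.19 to 6.87) in old WT Cre. In young EC-K4KO it held 13 of 128 (10.2%, 5.52 to 16.7) and 100 of 907 (11.0%, 9.06 to 13.2). Summits per kb between the TSSs, divided by those within 1500 bp downstream of either TSS, gave 0.429, 0.664, 1.77 and 1.94 in the 4 libraries. The groups did not overlap, and the mean log2 ratio was 1.79 higher in young EC-K4KO (exact permutation test, p = 0.33, the smallest possible). Over all 4 libraries the ratio showed no common direction (mean log2 ratio -0.0095, exact sign-flip test, p = 1.0). Whether a ratio fell below 1 depended on how far downstream was counted. With 500 bp the ratios were 0.201, 0.265, 0.77 and 0.855, and with 3000 bp 0.665, 1.2, 3.05 and 3.18, and the young EC-K4KO libraries were higher in each case. Single-gene promoters differed between the groups in the same direction. Summits per kb in the 200 bp upstream of the TSS over those downstream gave 0.836, 0.923, 1.87 and 1.42 (log2 difference 0.89, exact permutation test, p = 0.33), so the split was not shown to be particular to pairs. The fragment size written by the peak caller fell along the 4 libraries, at 174, 162, 160 and 151 bp, as did the median peak width, at 222, 203, 194 and 185 bp. In fragment size, the nearest libraries of the 2 groups (162 and 160 bp) lay closer together than replicates of a group. In median peak width the nearest libraries (203 and 194 bp) lay no closer than the young EC-K4KO replicates (194 and 185 bp). The part of both measures in the result was not tested.

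**Figure D3:**
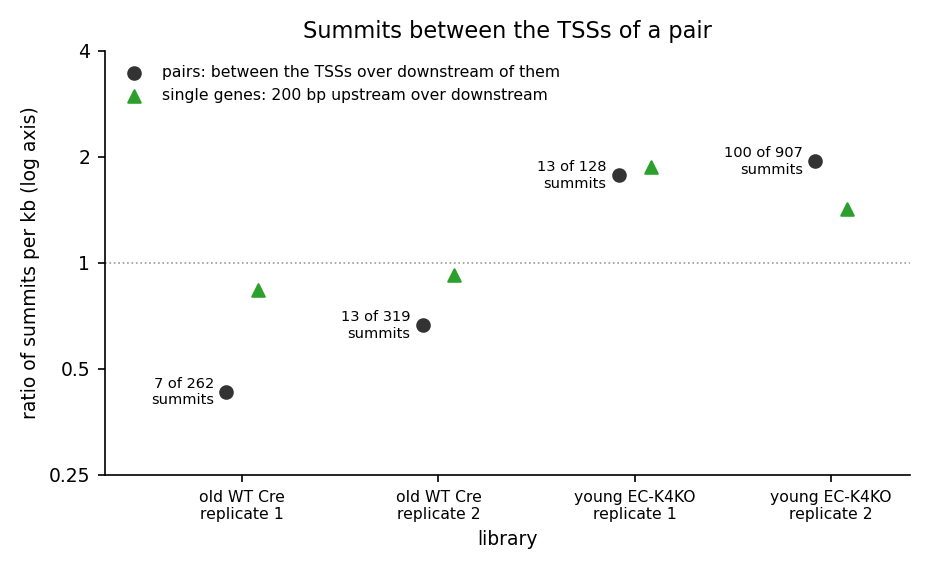
Ratio of summits per kb, on a log2 axis, between the TSSs of bidirectional pairs over the 1500 bp downstream of either TSS (circles, with the number of summits between the TSSs of all summits in pair regions) and in the 200 bp upstream over downstream of single-gene TSSs (triangles), for the 4 libraries. Both measures are below 1 in the old WT Cre libraries and above 1 in the young EC-K4KO libraries.

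Few pairs had a peak in every library. A peak was present in none, 1, 2, 3 and 4 libraries at 73, 251, 277, 132 and 22 pairs. Of the 251 with a peak in 1 library, 226 had it in young EC-K4KO replicate 2. Both old WT Cre libraries had a peak at 113 pairs (15.0%, against 8.7% of all protein-coding promoters), both young EC-K4KO libraries at 109 (14.4%, against 7.94%), and all 4 at 22 (2.91%, against 1.79%). Among CpG-rich promoters the first 2 shares were 16.2% of pairs against 13.3% of single-gene promoters, and 16.4 against 11.2%. No library had one at 73 pairs (9.67%), where the share of all protein-coding promoters was 29.2%, but among CpG-rich promoters the values were 7.15% of pairs and 8.98% of single-gene promoters. The 22 pairs with a peak in all 4 libraries were all CpG-rich, and made up 3.5% of CpG-rich pairs, beside 2.7% of CpG-rich single-gene promoters. A peak shared by the old WT Cre libraries but missing from both young EC-K4KO libraries was found at 11 pairs (1.46%, against 0.82% of all protein-coding promoters), of which 6 were not CpG-rich, and among CpG-rich promoters the shares were 0.795% of pairs and 0.759% of single-gene promoters. The opposite pattern was found at 35 pairs (4.64%, against 2.89%), of which 33 were CpG-rich (5.25% of CpG-rich pairs, against 3.61% of CpG-rich single-gene promoters). These 2 counts are not set against each other, since a pair could miss a peak in young EC-K4KO replicate 2 far less often than in any other library. The counts hung on the threshold and on single libraries. At q of at most 1e-05, 45 pairs had a peak in both old WT Cre libraries, 34 in both of young EC-K4KO, and 3 in all 4. Without young EC-K4KO replicate 1, 640 pairs had a peak in the remaining young EC-K4KO library, 261 of them in it alone, and 100 in all 3 remaining libraries, and without young EC-K4KO replicate 2, 89 were in old WT Cre alone. Without old WT Cre replicate 1 or 2, the old WT Cre counts were 287 and 241, those of old WT Cre alone 20 and 21, those of young EC-K4KO alone 54 and 68, and those of all remaining libraries 55 and 41.

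The 10 pairs whose weakest library was strongest, among those with a peak in all 4, served varied cellular functions. Each value below is the highest fold enrichment of a peak in the region, in the order given above. Hist1h2bf/Hist1h2ad, which encodes the core histones H2B and H2A, had 5.63, 5.96, 5.74 and 6.6. Summits of the first 3 values lay 73, 303 and 358 bp into Hist1h2bf. The summit of 6.6 lay 1502 bp past the Hist1h2ad TSS, outside the region that its peak overlapped. Rpa1/Smyd4, with the large subunit of the single-strand DNA binding protein RPA, had 4.13, 5.58, 5.1 and 9.16. Its summits lay 962 and 146 bp into Rpa1 for old WT Cre, but 134 and 102 bp into Smyd4 for young EC-K4KO, a split by group that none of the other 9 showed, and its peaks in the second replicate of each group covered both TSSs. Ptcd2/Mrps27, a mitochondrial RNA processing gene beside one of the mitochondrial ribosome, had 4.32, 4.1, 5.56 and 7.88. Mfsd8/Abhd18, with a lysosomal membrane protein, had 4.51, 4.85, 4.46 and 7.07. 1700029J07Rik/Ufsp2, with a protease that matures and removes the ubiquitin-like modifier UFM1, had 6.39, 7.32, 4.18 and 8.4, and its 4 summits lay 81, 130, 73 and 12 bp into 1700029J07Rik. Prepl/Camkmt, with a peptidase-like enzyme and a calmodulin methyltransferase, had 4.13, 4.47, 4.14 and 10.2, and its 4 summits lay 241, 306, 163 and 352 bp into Camkmt. In these last 2 pairs and in Ift80/Smc4 (Smc4, at 1238, 1104, 702 and 117 bp) the same gene carried the strongest peak in each library. The other 4 were Ift80/Smc4 (intraflagellar transport and condensin), Bag4/Lsm1 (a co-chaperone and an mRNA decay factor), Cep57/Fam76b (a centrosomal protein) and Zdhhc6/Vti1a (a palmitoyltransferase and a SNARE), with values of 3.82 to 9.19. In all 10 the highest value was in young EC-K4KO replicate 2, for the histone pair from the peak at the edge of its region. Fold enrichments were not compared between libraries further because each is relative to its own library.

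Among pairs with a peak in the old WT Cre libraries alone, 5 were named by their q-values. Mfap1a/Wdr76, with a spliceosome component, had fold enrichments of 3.94 and 5.97 and no peak in young EC-K4KO. Ccdc146/Fam185a had 4.88 and 6.34, with summits 522 and 434 bp into Fam185a. Cenpj/Parp4, with a centriole assembly protein and the poly(ADP-ribose) polymerase of vault particles, had 4.51 and 5.97, with summits 123 and 3 bp into Parp4. Sirt1/Dnajc12, with the NAD-dependent deacetylase SIRT1 studied in ageing, had 4.07 and 6.73, but the summits lay 1814 and 1557 bp into Sirt1, outside the region that the peaks overlapped. The last pair, 4930430F08Rik/1700017N19Rik, had 6.39 and 5.59, with summits 1271 and 1453 bp from a TSS. Summits of these 5 pairs lay 3 to 1814 bp from the nearest TSS. In the 5 pairs that led the list of the young EC-K4KO libraries alone, they lay 1 to 645 bp away. These ranges are not set against each other, since the first list had to lack a peak in young EC-K4KO replicate 2. Mphosph10/Mcee, with a pre-ribosomal RNA processing protein and a mitochondrial epimerase, had fold enrichments of 5.17 and 12.5, with summits 247 and 257 bp into Mcee. Rbm7/Gm5617, with an adaptor of the nuclear exosome, had 5.7 and 8.72, with summits 250 and 241 bp into Rbm7. In both pairs the summits of the 2 libraries lay within 10 bp of each other. Npc2/Isca2, with a lysosomal cholesterol carrier and an iron-sulphur cluster protein, had 5.67 and 8.0. Eaf2/Golgb1, with a partner of the elongation factor ELL and the Golgi protein giantin, had 5.74 and 5.66. Myl12b/Myom1, with a myosin regulatory light chain, had 5.57 and 10.3, and its summits lay between the TSSs in both libraries.

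**Figure D4:**
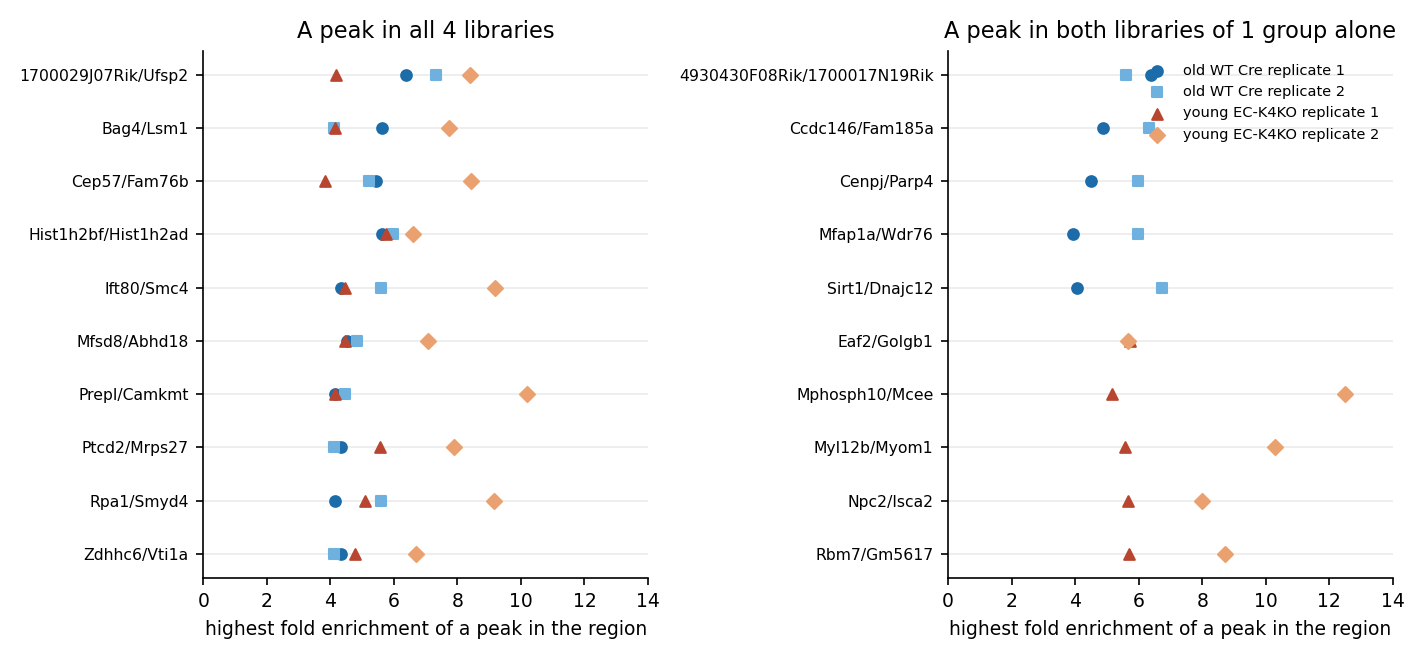
Highest fold enrichment over local background of a peak in the region, by library, for the 10 named pairs with a peak in all 4 libraries (left) and the 5 named pairs of each group with a peak in both of its libraries and neither of the other (right; the first 5 are old WT Cre, the last 5 young EC-K4KO). A missing symbol means no peak; on the left the young EC-K4KO replicate 2 symbol is farthest right in each row, from 6.6 to 10.2.

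Pairs were also read by the role of a member gene, from lists of gene symbols. Replication-dependent histone genes made 14 pairs, most of them an H2A gene facing an H2B gene. They had a peak in 11, 9, 5 and 14 of 14 cases (78.6, 64.3 and 35.7% in the first 3), above the share of all pairs (31.9, 38.0, 16.0 and 84.8%) in each library. Both old WT Cre libraries had a peak at 7 of the 14, against 15.0% of all pairs, and Hist1h2bl/Hist1h2ai joined Hist1h2bf/Hist1h2ad among the pairs with a peak in all 4, at 5.82, 4.85, 3.48 and 7.6. Hist1h2ah/Hist1h2bk had the highest fold enrichment of any pair in old WT Cre replicate 1, at 7.7. The testis histone pair Hist1h2ba/Hist1h2aa had a peak in young EC-K4KO replicate 2 alone, at 5.69. Histone genes are near-identical copies, whether reads that fit several copies were kept is not given in the sources used here, and the regions of the 2 pairs on chromosome 3 overlapped, so values of single histone pairs are uncertain.

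The list of DNA repair and replication genes, a partial one, gave 25 pairs, with a peak in 9, 11, 7 and 18 of them (36.0, 44.0, 28.0 and 72.0%), above the share of all pairs in 3 libraries and below it in young EC-K4KO replicate 2. Atm/Npat, between the kinase that signals DNA breaks and the activator of histone transcription, had a peak of 4.13 in old WT Cre replicate 1 and of 4.14 and 6.28 in young EC-K4KO, and none in old WT Cre replicate 2. Brca1/Nbr1, with the recombination factor BRCA1 and an autophagy receptor, had 1 peak, of 3.0 in old WT Cre replicate 1. Mcm4/Prkdc, with a subunit of the replicative helicase and the catalytic subunit of DNA-dependent protein kinase, had 1 of 8.76 in young EC-K4KO replicate 2, with its summit between the TSSs. Genes of the mitochondrial ribosome and respiratory chain made 42 pairs, at 35.7, 33.3, 11.9 and 85.7%, near all pairs, and Esf1/Ndufaf5 was with Ptcd2/Mrps27 among those with a peak in all 4. Chaperones made 12 pairs, with a peak in 8, 3, 2 and 10 of them, above all pairs in the first replicate of each group and below them in the second. Proteasome (8 pairs) and RNA polymerase or Mediator genes (14 pairs) had a peak in 3 and 3 of 8 and in 5 and 6 of 14 cases in old WT Cre, none in young EC-K4KO replicate 1, and 8 of 8 and 13 of 14 in young EC-K4KO replicate 2. With 16.0% of all pairs called in young EC-K4KO replicate 1, a count of 0 of 8 or 0 of 14 is a low count and not a shown absence. The 5 pairs with tRNA synthetases had a peak in 3, 3, 0 and 4 cases. Solute carriers had a peak in 4, 7, 2 and 14 of 16 pairs and zinc finger genes in 5, 9, 3 and 20 of 24. The lists were matched by the start of the symbol, so they miss genes of the same role whose symbols start otherwise (further repair and replication genes are in pairs and were not counted), a few members, such as Parpbp, do not belong to the family, and 1 of the 2 pairs of the type IV collagen list was Polk/Col4a3bp, where Col4a3bp encodes a lipid transfer protein. Shares of small lists move by many points with 1 pair.

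**Figure D5:**
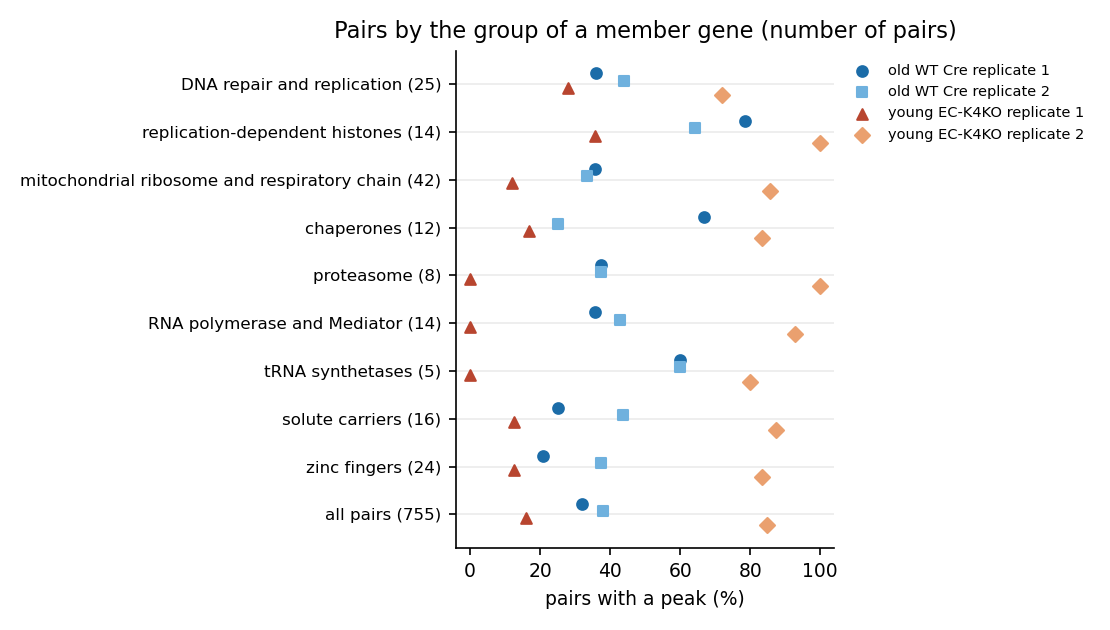
Percent of pairs with a peak in each library (symbols) for pairs that hold a gene of the named list (partial lists, matched by the start of the symbol), with the number of pairs in brackets and all 755 pairs in the last row. The histone row lies to the right of the all-pairs row in every library, from 35.7% to all 14 pairs, and the proteasome, polymerase and tRNA synthetase rows have no peak in young EC-K4KO replicate 1.

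A short list of textbook pairs and of endothelial markers was also looked up. Of the textbook pairs looked up, 4 met the rule, 7 had overlapping 5′ ends and 2 were farther apart or not head to head. Col4a1/Col4a2, the collagens of the vascular basement membrane, was among those excluded, with 5′ ends that overlap by 21 bp. Col4a4/Col4a3, of other basement membranes, had a peak of 5.22 in old WT Cre replicate 2, 270 bp into Col4a4, and one of 6.91 in young EC-K4KO replicate 2, 316 bp into Col4a3. The first replicate of each group had none. Of 10 endothelial markers, 1 was in a pair. Pecam1, the adhesion molecule of endothelial junctions, lies 598 bp from Milr1, and this pair, which is not CpG-rich, had a peak in young EC-K4KO replicate 2 alone, at 4.62. Over all 10 endothelial markers (Cdh5, Cldn5 and Kdr among them) 3, 4, 0 and 5 had a promoter peak, beside 22.9, 22.4, 9.47 and 63.4% of all protein-coding promoters. No marker of endothelium or of 5 other cell types had one in all 4 libraries, where 1.79% of all protein-coding promoters did, so little can be read from these counts. Counts for 5 markers each were 0, 1, 1 and 3 for neurons, 1, 1, 0 and 1 for astrocytes, 1, 1, 0 and 4 for oligodendrocytes, 3, 1, 0 and 1 for microglia and 2, 0, 1 and 3 for pericytes. Klf4, the deleted gene, is in no pair. Its promoter had a peak in the young EC-K4KO libraries alone, and a promoter peak does not show whether the floxed part was lost.

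The sequence in the middle of a pair differed from that just upstream of a single gene. Motifs were counted on both strands in 200 bp around the middle of each pair, and in 200 bp centred 64 bp upstream of each single-gene TSS. At the median distance of 129 bp the pair window spans the TSSs of both genes, while the single-gene window spans only that of its own gene. The part of this unlikeness in the differences below was not tested. The ETS motif was in 10.3% of pairs and 3.37% of single-gene promoters, and among CpG-rich promoters in 10.7 and 6.42%. YY1 (AAGATGGCG) was in 3.31 and 0.956% (CpG-rich, 3.5 and 1.95%), NRF1 (GCGCATGCG) in 4.24 and 1.85% (5.09 and 3.42%), the cAMP response element (TGACGTCA) in 4.24 and 2.09% (4.77 and 3.44%) and the CCAAT box in 38.5 and 30.8% (40.1 and 30.3%). These 5 were more frequent in pairs with and without the limit to CpG-rich promoters, and so were ZNF143 at 4.11 and 2.49% (3.66 and 2.52%) and the E-box (CACGTG) at 8.87 and 5.52% (9.54 and 8.46%). The GC box turned with that limit, from 57.5 against 37.5% to 62.3 against 68.4%. The TATA box (TATAAA) was in 3.58% of pairs and 9.3% of single-gene promoters, but in 3.18 and 3.54% of CpG-rich ones. The KLF motif (GGGTGTGG), of the family of the deleted factor, was in 2.25 and 3.31% (2.07 and 2.78%). The letters of several motifs overlap in part with others, and a match is not a bound site.

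The share of pairs with a peak was compared between pairs with and without each of the 10 motifs, where 4 libraries allow no p below 0.13 for 1 motif. Pairs with an NRF1 match had a peak in 34.4, 40.6, 18.8 and 87.5% of cases and pairs without it in 31.8, 37.9, 15.9 and 84.6%. The difference of 2.56 to 2.85 points was in 1 direction in 4 of 4 libraries (exact sign-flip test, p = 0.13, Benjamini-Hochberg adjusted p = 0.75 over 10 motifs). It rested on 32 pairs with the match, and 1 fewer of them with a peak in a library would have turned its direction there. Pairs with an ETS match had a peak in 48.7, 43.6, 17.9 and 82.1%, and the difference ran from 18.7 points in old WT Cre replicate 1 to -3.03 in young EC-K4KO replicate 2 (exact sign-flip test, p = 0.375, adjusted p = 0.75). For KLF the difference ran from -14.6 to 15.6 points over 17 pairs with the match (exact sign-flip test, p = 0.875, adjusted p = 1.0).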

How the data were processed

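Pol II ChIP-seq peak lists of 4 libraries were analysed, 2 per group as the labels give them. According to the study's methods the authors aligned trimmed reads to the mm10 build with Bowtie2 and removed duplicates, and per the file headers they called peaks in each library with MACS 2.2.7.1 on paired fragments, at q of 0.01 with no control library and with duplicates kept by the caller. The caller's version differs from the one the methods name, and these sources do not settle whether pileups count duplicate fragments. The deposited tables give for each peak the number of fragments piled up at its summit (coverage), the ratio of that pileup to local background (fold enrichment), and the p-value and q-value as −log10, none normalized between libraries. The narrow peak and summit lists the authors deposited held the same peaks and were not used. Called peaks had pileups of at least 13, 8, 9 and 7 fragments in the 4 libraries, which sets the depth limit of each list.

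Pairs and single-gene promoters were built from GENCODE M21 on GRCm38 and sequences were read with samtools 1.23.1. Analysis used Python 3.11.15, numpy 2.4.6, pandas 2.3.3 and scipy 1.17.1. A region had a peak when at least 1 bp overlapped. The library was the replicate. Classes were compared by exact sign-flip tests over 4 libraries and groups by exact permutation. Named pairs were the 10 with a peak in all 4 libraries whose lowest fold enrichment over the libraries was largest, the 5 per group with peaks in both of its libraries and neither other, by the smaller −log10 q, and textbook pairs where they met the rule (1 pair of that list is not reported here). Other pairs named were extremes of a count or a list, chosen after their values were seen. The members and lists were chosen with earlier results of these data known. The self-test on simulated data recovered 200 of 200 planted pair regions. Alternatives were stricter q, fold enrichment of at least 4, lists of equal length, summit calls, other windows, pair rules and promoter classes, and leaving out each library. The other assays of the study were not analysed here.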

Additional observations from a re-analysis of the deposited data

Results flagged for a closer look

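The position of summits between the TSSs of a pair differed between the groups, with each old WT Cre library below a ratio of 1 and each young EC-K4KO library above it. Summits per kb between the TSSs over those downstream were 0.429, 0.664, 1.77 and 1.94 in the 4 libraries (the old WT Cre pair first, then young EC-K4KO), a log2 difference of 1.79, for which the exact permutation test gave the smallest p it can, 0.33. The difference rests on 7, 13, 13 and 100 summits between the TSSs. Leaving out each library in turn, which was not planned in advance for this difference, gave 1.48 to 2.11. Fragment size (174, 162, 160 and 151 bp) and median peak width fell in the same order of libraries, with a smaller gap between the groups than within them for fragment size, and their part was not tested.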

How the results depend on the processing

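The mean excess of pairs over single-gene promoters kept its direction under each alternative run (4.76 to 17.9 percentage points, and ratios of summits per kb of 1.18 to 1.88), against single-gene promoters with a noncoding partner (4.22 points and 1.09, or 2.4 points and 1.06 when both were CpG-rich) and without each library (11.5 to 17.1 points and 1.55 to 1.68). Both values shrank among CpG-rich promoters alone (4.76 points and a ratio of 1.18), and the ratio rose to 1.88 with 500 bp outside the TSS. The mean log2 ratio of summits between the TSSs over downstream moved to -1.21 with 500 bp, where downstream bases far from the TSS are no longer counted. It was 0.739 with 3000 bp (3 of 4 libraries above 0), and ran from -0.33 to 0.394 without each library. The difference between the groups in this log2 ratio stayed between 1.48 and 2.11, in alternative runs that were not planned in advance. The group difference in the share of pairs with a peak turned to -18.9 points without young EC-K4KO replicate 2 and was 49.8 without replicate 1. Counts of pairs moved with the threshold and with single libraries. At q of at most 1e-05, 45 pairs had a peak in both old WT Cre libraries, 34 in both young EC-K4KO libraries, 14 in young EC-K4KO alone and 3 in all 4. At a fold enrichment of at least 4 the counts were 48 for both old WT Cre libraries, 74 for both young EC-K4KO libraries, 5 for old WT Cre alone and 9 for all 4. With lists of equal length they were 50 for both old WT Cre, 77 for both young EC-K4KO and 13 for all 4. Pairs in old WT Cre alone numbered 6 with 500 bp outside the TSS and 5 among CpG-rich promoters. With pairs whose 5′ ends overlap included, an alternative chosen after seeing the data, the counts were 188 for both old WT Cre, 172 for both young EC-K4KO, 53 for young EC-K4KO alone and 38 for all 4. Without each library they ranged from 113 to 287, 109 to 640, 13 to 89 (old WT Cre alone), 41 to 261 (young EC-K4KO alone) and 24 to 100 (all remaining libraries), since fewer lists must then hold or lack a peak. The labels number the libraries of each group alike, and nothing in them ties libraries of one number together (correlation of deviations over pairs -0.0111). With the replicate number as a block the group difference was 15.4 points (exact sign-flip test of 2 differences, p = 1.0). Lists reach down to pileups of 7 to 13 fragments, so a pair without a peak may hold Pol II below that depth.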
